A study of Homo sapiens with 12 samples.

Results

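A set of 8 genes of the actin machinery was examined as 4 pairs in HOS cells. Each pair joined a gene that is typical of blood cells to a paralog that most cell types express: HCLS1 with CTTN, LCP1 with PLS3, ARHGDIB with ARHGDIA, and RAC2 with RAC1. All 8 were found by Ensembl identifier among the 25141 genes of the count table, and all 8 were among the 12542 genes tested. HCLS1 and ARHGDIB were chosen by their measured opposite direction in upCIN85 and siCIN85 cells, and the other members were added as functional relatives with earlier results of these data in view. The values of upCIN85 versus Mock and of siCIN85 versus siNeg are therefore given for the members as a description, with no test, and only siNeg versus Mock was tested.

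HOS is a human osteosarcoma cell line. The study asked how the adaptor protein CIN85, encoded by SH3KBP1, acts on the motility of osteosarcoma cells, and 3′ end RNA‐seq was made from 12 libraries, with 4 groups of 3. A plasmid encoding the full‐length protein had been introduced into upCIN85 cells, which were kept as a geneticin‐resistant pool. Mock cells went through the same selection with the vector alone. In the knockdown experiment, siCIN85 cells were transfected with several siRNAs to CIN85 and siNeg cells with a non‐targeting one. Each stable group was 1 pool of cells, and no source states whether the 3 libraries of a group came from separate cultures, so P‐values measure only the spread between these libraries. In bulk RNA, fewer cells that express a gene and less RNA of it per cell cannot be told apart.

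Total counts were 3540641 to 6049458 per library, with higher medians in the stable pools (Mock 5745424, upCIN85 5834397) than after siRNA (siNeg 4038260, siCIN85 3793046). SH3KBP1 was at 77.2 ± 4.99 CPM (counts per 1000000 counts of the TMM‐normalized library, mean ± SD, n = 3) in Mock and 81.0 ± 9.58 in upCIN85, and 84.8 ± 2.36 in siNeg and 7.51 ± 3.18 in siCIN85. The gene fell in siCIN85 (log2FC = -3.51, SE 0.21, adjusted P = 5.09e-08 in edgeR's quasi‐likelihood test with Benjamini‐Hochberg adjustment). Its log2FC in upCIN85 was 0.070 (SE 0.16, adjusted P = 0.887 in edgeR's test), but a plasmid transcript that ends in vector sequence leaves no 3′ tag on the gene, and whether the plasmid holds the 3′ end of SH3KBP1 is not given in the sources used here, so this value does not check the upCIN85 label. For each of the 4 blood‐type genes, upCIN85 replicate 2 was the highest of its group and replicate 3 the lowest. Values without replicate 2 and values without replicate 3 are given beside the results.

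The members act at successive steps of actin assembly. Cortactin (CTTN) and its blood cell counterpart HS1 (HCLS1) bind the Arp2/3 complex and actin filaments and stabilise branched networks at the cell edge. Plastins, also called fimbrins, cross‐link filaments into tight bundles, with LCP1 encoding the leukocyte form L‐plastin and PLS3 encoding the form of solid tissues. Rac GTPases switch on Arp2/3‐dependent protrusion, and the GDP‐dissociation inhibitors encoded by ARHGDIA and ARHGDIB hold such GTPases inactive in the cytosol. RAC2 and ARHGDIB are the blood cell forms of these proteins, although LCP1 and ARHGDIB are also known to be expressed in many cancer cell lines.

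The blood‐type and broad members could be told apart in these libraries. No stretch of 75 nucleotides was shared between the transcripts of any pair. Of the 8 genes, RAC1 alone shared such stretches with other genes, the processed pseudogenes RAC1P2 and RAC1P5, over 12.4% of the stretches in the last 500 nucleotides of its transcripts, and the pseudogenes had at most 5 and 1 counts in any library. The antisense genes that overlap CTTN, PLS3 and ARHGDIA had at most 11, 4 and 1 counts in any library.

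Promoter sequences from RefSeq (GRCh38.p14) were found for 5 of the 8 members, HCLS1, LCP1, PLS3, ARHGDIB and ARHGDIA, which have 9 annotated windows of 250 bases before a start site. They are shown because the blood‐type genes shared a direction in both comparisons of CIN85. ETS family transcription factors, which include the myeloid and lymphoid factor PU.1, bind cores of the GGAA type. On both strands, GAGGAA was found in 2 of the 9 windows and in 23.6% of all 35116 promoter windows, and CGGAAG was found in 2 of the 9 and in 16.5% of all. AGGAAGT was found in 4 of the 9 windows and in 7.01% of all. It was chosen after these promoters had been read, so these 2 values cannot show an excess. The string GAGGAAGT holds both GAGGAA and AGGAAGT, and it is present in the LCP1 stretch. Each stretch of 60 bases below is from outside annotated exons and is written 5′ to 3′ on the strand of the gene, with the match in capitals. HCLS1 (chr3:121660948-121661007, minus strand) and LCP1 (chr13:46182336-46182395, minus strand) hold AGGAAGT 71 and 185 bases before a start site. ARHGDIB (chr12:14948897-14948956, minus strand) holds its reverse complement 26 bases before 1 of its 3 annotated start sites, and PLS3 (chrX:115593469-115593528, plus strand) holds AGGAAGT 49 bases before 1 of its 2. ARHGDIA (chr17:81871167-81871226, minus strand) has no AGGAAGT in its windows, and the reverse complement of CGGAAG is shown. ARHGDIA also holds CGGAAG 60 and 43 bases before another start site. LCP1 also holds the reverse complement of AGGAAGT 39 bases before its start site. The stretches around these further matches overlap annotated exons and are not shown.
HCLS1: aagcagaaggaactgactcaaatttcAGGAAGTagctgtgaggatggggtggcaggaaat
LCP1: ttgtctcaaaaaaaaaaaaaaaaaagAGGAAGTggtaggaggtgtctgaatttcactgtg
ARHGDIB: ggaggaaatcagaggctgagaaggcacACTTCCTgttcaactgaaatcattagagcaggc
PLS3: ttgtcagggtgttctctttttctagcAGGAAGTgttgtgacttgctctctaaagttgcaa
ARHGDIA: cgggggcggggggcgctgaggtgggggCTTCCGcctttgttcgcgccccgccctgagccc
The GC content of the whole windows was 41.2% in HCLS1 and in LCP1, 43.2% to 51.6% in ARHGDIB, 34.0% and 65.2% in PLS3, and 71.6% and 86.0% in ARHGDIA, against a median of 58.0% over all windows. The windows of HCLS1, LCP1 and ARHGDIB were poorer in G and C than that median, and the PLS3 windows lay on either side of it. A match describes the letters only, and no binding was measured.

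In all 4 groups, each broad paralog had a higher level than its blood‐type partner. Because the kit gives tags from transcript ends, CPM was taken as the level and was compared between genes without division by transcript length. In Mock cells the order by CPM was RAC1 (858 ± 73.7), CTTN (460.1 ± 20.9), PLS3 (384 ± 14.95), ARHGDIA (111 ± 6.17), ARHGDIB (34.9 ± 3.96), HCLS1 (12.7 ± 2.06), LCP1 (8.33 ± 0.942) and RAC2 (3.57 ± 0.977). All neighbours in that order were further apart than their SDs. In siCIN85 cells LCP1 (39.1 ± 9.94 CPM) stood above HCLS1 (19.98 ± 2.73) and RAC2 (12.5 ± 3.39), the reverse of the order of LCP1 and HCLS1 in Mock. Divided by the length of the longest annotated transcript, LCP1 and RAC2 in Mock would be at 2.11 ± 0.239 and 2.41 ± 0.659 CPM per kilobase, and the order of that pair thus depends on the scale.

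**Figure D1:**
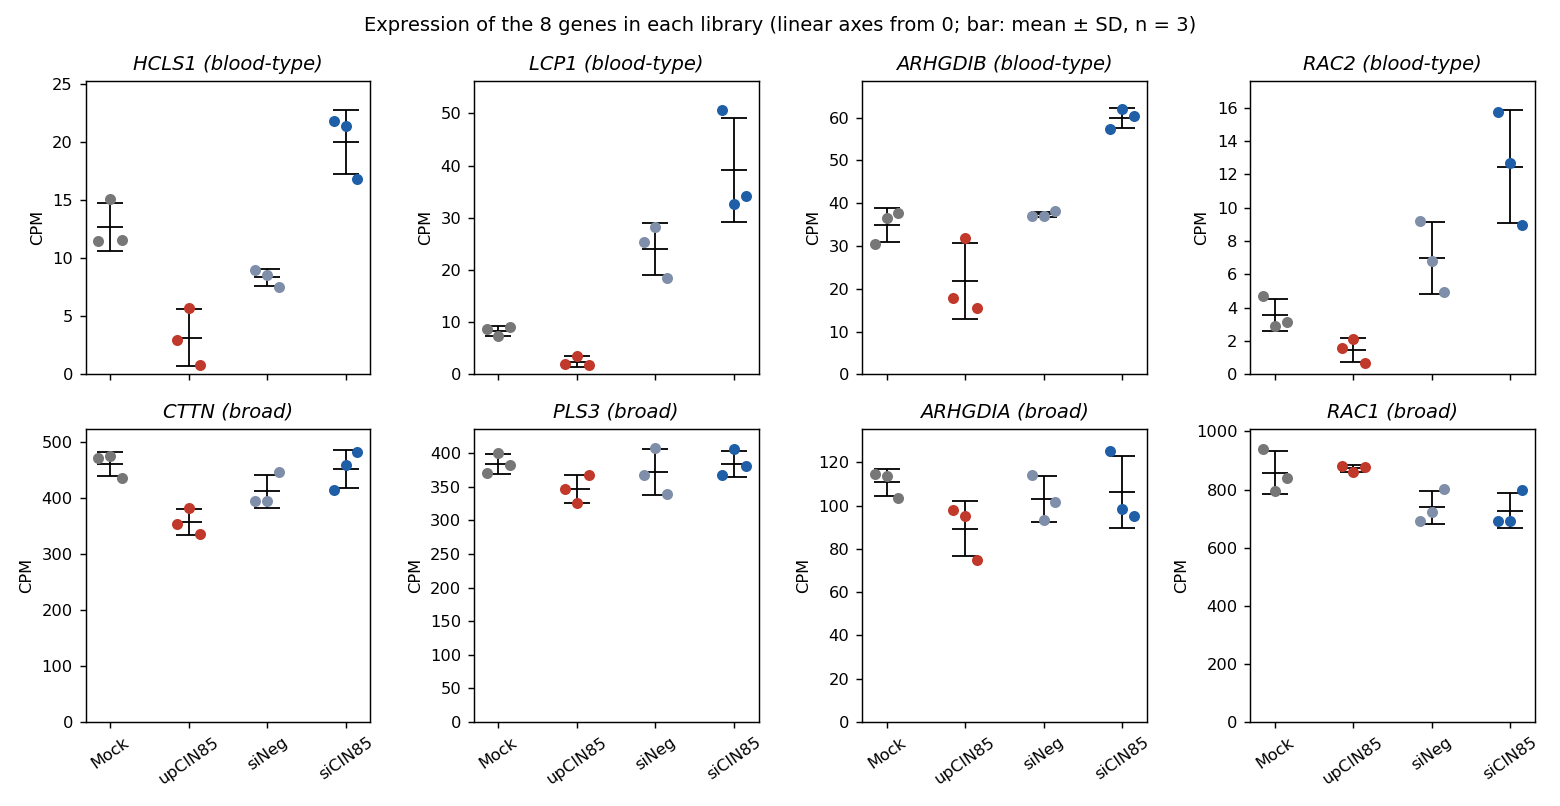
TMM‐normalized CPM (y axis, linear from 0) of the 4 blood‐type genes (upper row) and their broad paralogs (lower row) in each library of the 4 groups (points), with mean ± SD (bars, n = 3). The blood‐type genes were lowest on average in upCIN85 and highest in siCIN85 (HCLS1 3.17 and 19.98 CPM). Group means of the broad paralogs lay closer together (PLS3 347 to 384, CTTN 357 to 460 and ARHGDIA 89.4 to 111 CPM). CTTN, PLS3 and ARHGDIA were also lowest on average in upCIN85, and RAC1 was not.

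HCLS1 (ENSG00000180353, chromosome 3, 121631399 to 121660927, minus strand, GRCh38) encodes HS1, a substrate of Src family kinases in lymphocytes that carries the same actin and Arp2/3 contacts as cortactin. HCLS1 was at 11.4, 15.1 and 11.5 CPM in the Mock libraries and at 2.96, 5.70 and 0.847 CPM in the upCIN85 libraries. Its levels were 8.97, 8.53 and 7.53 CPM in siNeg and 21.8, 21.3 and 16.8 CPM in siCIN85. No 2 groups overlapped, in the order upCIN85, siNeg, Mock and siCIN85. In upCIN85 replicate 3 the gene rested on 5 counts, the fewest of any library. The log2FC was -1.98 (SE 0.35) in upCIN85 versus Mock and 1.26 (SE 0.32) in siCIN85 versus siNeg. Without upCIN85 replicate 2 the first value was -2.73, and without upCIN85 replicate 3 it was -1.54.

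CTTN (ENSG00000085733, chromosome 11, 70398404 to 70436584, plus strand), the cortactin gene, had 470, 474 and 436 CPM in Mock and 353, 382 and 336 CPM in upCIN85. Its levels were 394, 395 and 446 CPM in siNeg and 414, 459 and 481 CPM in siCIN85. All upCIN85 libraries were below all Mock libraries, while the siNeg and siCIN85 libraries overlapped. The log2FC was -0.37 (SE 0.094) in upCIN85 and 0.13 (SE 0.094) in siCIN85. HCLS1 made up 2.68 ± 0.364% of the summed counts of HCLS1 and CTTN in Mock and 0.851 ± 0.610% in upCIN85, and 2.00 ± 0.298% in siNeg and 4.27 ± 0.821% in siCIN85. The log2 ratio of HCLS1 to CTTN within a library was lower by 2.01 in upCIN85 than in Mock (difference -2.01, SE 0.76) and higher by 1.12 in siCIN85 than in siNeg (SE 0.22), with no overlap in either comparison.

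LCP1 (ENSG00000136167, chromosome 13, 46125920 to 46211871, minus strand) had 8.63, 7.28 and 9.09 CPM in Mock and 1.92, 3.58 and 1.86 CPM in upCIN85. Its levels were 25.4, 28.3 and 18.4 CPM in siNeg and 50.6, 32.6 and 34.2 CPM in siCIN85. The groups followed the order upCIN85, Mock, siNeg and siCIN85 with no overlap between neighbours, and siCIN85 replicate 1 stood above the other libraries. The log2FC was -1.74 (SE 0.30) in upCIN85 and 0.70 (SE 0.21) in siCIN85. Without upCIN85 replicate 2 the first was -2.12, and without upCIN85 replicate 3 it was -1.58.

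PLS3 (ENSG00000102024, chromosome X, 115561174 to 115650861, plus strand) encodes T‐plastin. It had 369.96, 399.7 and 382 CPM in Mock and 347, 325 and 368 CPM in upCIN85. Its levels were 367, 407 and 339.8 CPM in siNeg and 367, 405 and 380.1 CPM in siCIN85. The upCIN85 libraries lay just below the Mock libraries, and the siRNA groups overlapped. The log2FC was -0.15 (SE 0.093) in upCIN85 and 0.048 (SE 0.093) in siCIN85. LCP1 made up 2.13 ± 0.297% of the counts of this pair in Mock and 0.715 ± 0.326% in upCIN85, and 6.03 ± 0.771% in siNeg and 9.27 ± 2.49% in siCIN85. The log2 ratio of LCP1 to PLS3 differed by -1.68 (SE 0.38) between upCIN85 and Mock and by 0.65 (SE 0.26) between siCIN85 and siNeg, again without overlap. PLS1, the epithelial plastin and the remaining member of the family, was at 67.9 CPM in Mock and 71.5 in upCIN85, and 60.2 in siNeg and 41.7 in siCIN85. Its log2FC of -0.54 in siCIN85 (SE 0.21) did not pass the test (adjusted P = 0.222 in edgeR's test) without the replicate block. It passed (adjusted P = 0.0152 in edgeR's test) with that block, which treats libraries of the same number as paired in both experiments.

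ARHGDIB (ENSG00000111348, chromosome 12, 14942017 to 14961728, minus strand), the inhibitor known from lymphocytes as LyGDI, had 30.4, 36.5 and 37.8 CPM in Mock and 17.95, 31.9 and 15.4 CPM in upCIN85. Its levels were 37.1, 37.0 and 38.2 CPM in siNeg and 57.3, 62.0 and 60.3 CPM in siCIN85. The siCIN85 libraries stood apart from all others, while upCIN85 replicate 2 lay within the Mock range. The log2FC was -0.68 (SE 0.20) in upCIN85 and 0.68 (SE 0.19) in siCIN85. The upCIN85 value was -1.07 without replicate 2 and -0.49 without replicate 3.

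ARHGDIA (ENSG00000141522, chromosome 17, 81867721 to 81871406, minus strand) encodes the inhibitor present in most cells. It had 115, 114 and 104 CPM in Mock and 98.1, 95.3 and 74.7 CPM in upCIN85. Its levels were 114, 93.3 and 102 CPM in siNeg and 125, 98.3 and 95.3 CPM in siCIN85. The upCIN85 libraries were below all Mock libraries, and the siRNA groups overlapped. The log2FC was -0.31 (SE 0.13) in upCIN85 and 0.047 (SE 0.13) in siCIN85. ARHGDIB held the largest share of any blood‐type gene in its pair, at 24.0 ± 2.90% in Mock and 19.2 ± 5.15% in upCIN85, and 26.7 ± 1.99% in siNeg and 36.3 ± 4.23% in siCIN85. The log2 ratio of ARHGDIB to ARHGDIA differed by -0.43 (SE 0.30) between upCIN85 and Mock, with overlapping libraries, and by 0.64 (SE 0.18) between siCIN85 and siNeg, with none. As a difference of fitted log2FC, the former was -0.37 in all libraries, -0.71 without upCIN85 replicate 2 and -0.18 without upCIN85 replicate 1. ARHGDIG, the remaining gene of the family, had at most 2 counts in any library and was not tested.

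RAC2 (ENSG00000128340, chromosome 22, 37225261 to 37244448, minus strand), the Rac of neutrophils and other blood cells, had 4.69, 2.88 and 3.15 CPM in Mock and 1.57, 2.12 and 0.678 CPM in upCIN85. Its levels were 9.22, 6.82 and 4.93 CPM in siNeg and 15.7, 12.7 and 8.95 CPM in siCIN85. The upCIN85 and Mock groups did not overlap. The siCIN85 and siNeg groups did, though each siCIN85 library was above the siNeg library of the same number. RAC2 rested on 4 to 13 counts in upCIN85. The log2FC was -1.27 (SE 0.41) in upCIN85 and 0.83 (SE 0.31) in siCIN85. The upCIN85 value was -1.64 without replicate 2 and -0.94 without replicate 3.

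RAC1 (ENSG00000136238, chromosome 7, 6374523 to 6403977, plus strand), the Rac that drives lamellipodia in most cells, was the most abundant of the 8 genes. It had 938, 794 and 841 CPM in Mock and 882, 859 and 879 CPM in upCIN85. Its levels were 690.5, 723 and 803 CPM in siNeg and 692, 693 and 797 CPM in siCIN85. Both comparisons overlapped, with a log2FC of 0.026 (SE 0.096) in upCIN85 and -0.023 (SE 0.097) in siCIN85. RAC2 made up 0.410 ± 0.0754% of the counts of the pair in Mock and 0.167 ± 0.0849% in upCIN85, and 0.954 ± 0.354% in siNeg and 1.71 ± 0.561% in siCIN85. The log2 ratio of RAC2 to RAC1 differed by -1.44 (SE 0.52) between upCIN85 and Mock, without overlap, and by 0.86 (SE 0.44) between siCIN85 and siNeg, with overlap. RAC3, the remaining Rac gene, had group means of 6.89 to 7.34 CPM.

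**Figure D2:**
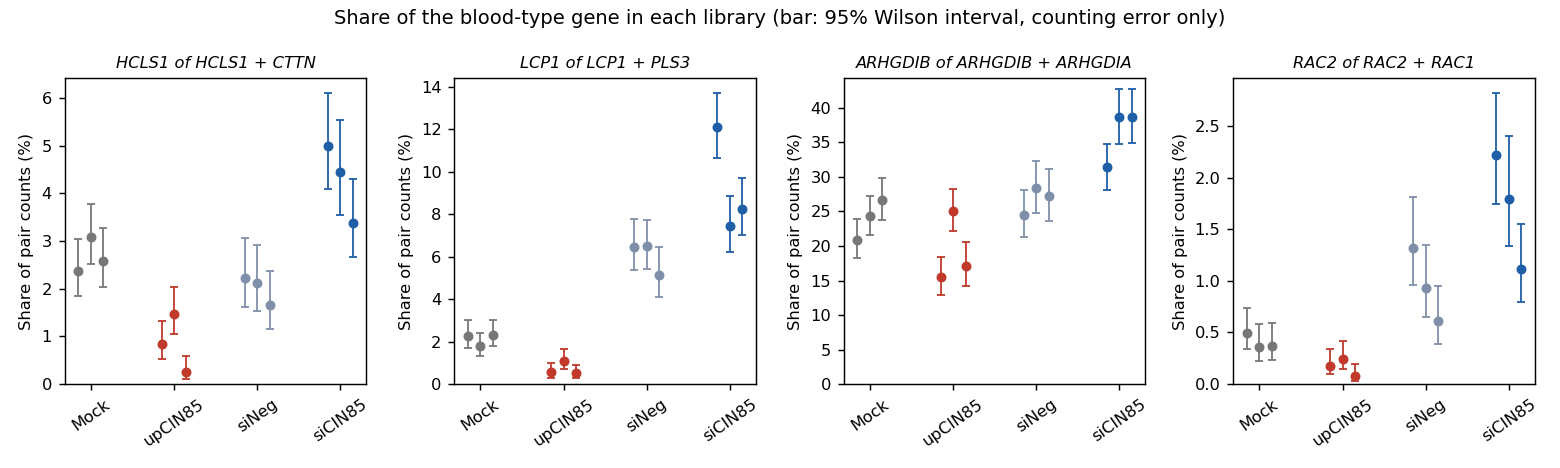
Share of the blood‐type gene in the summed counts of its pair (y axis, percent, linear from 0) in each library (points), with 95% Wilson intervals that cover counting error only. The ARHGDIB share was the largest (15.5% to 38.7% across libraries) and the RAC2 share the smallest (0.0771% to 2.22%).

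Side by side, the 4 blood‐type genes had log2FC values from -1.98 to -0.68 in upCIN85 and from 0.68 to 1.26 in siCIN85, and the 4 broad paralogs from -0.37 to 0.026 and from -0.023 to 0.13. The median over all genes tested was 0.0072 in upCIN85 and -0.0052 in siCIN85. In upCIN85, every library was below every Mock library for 3 of the 4 blood‐type genes and for 3 of the 4 broad paralogs, against 11.0% of all genes tested. In siCIN85, every library was above every siNeg library for 3 of the 4 blood‐type genes and for 0 of the broad ones, against 9.91% of all genes. As these contrasts were used to choose members, the counts are a description.

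**Figure D3:**
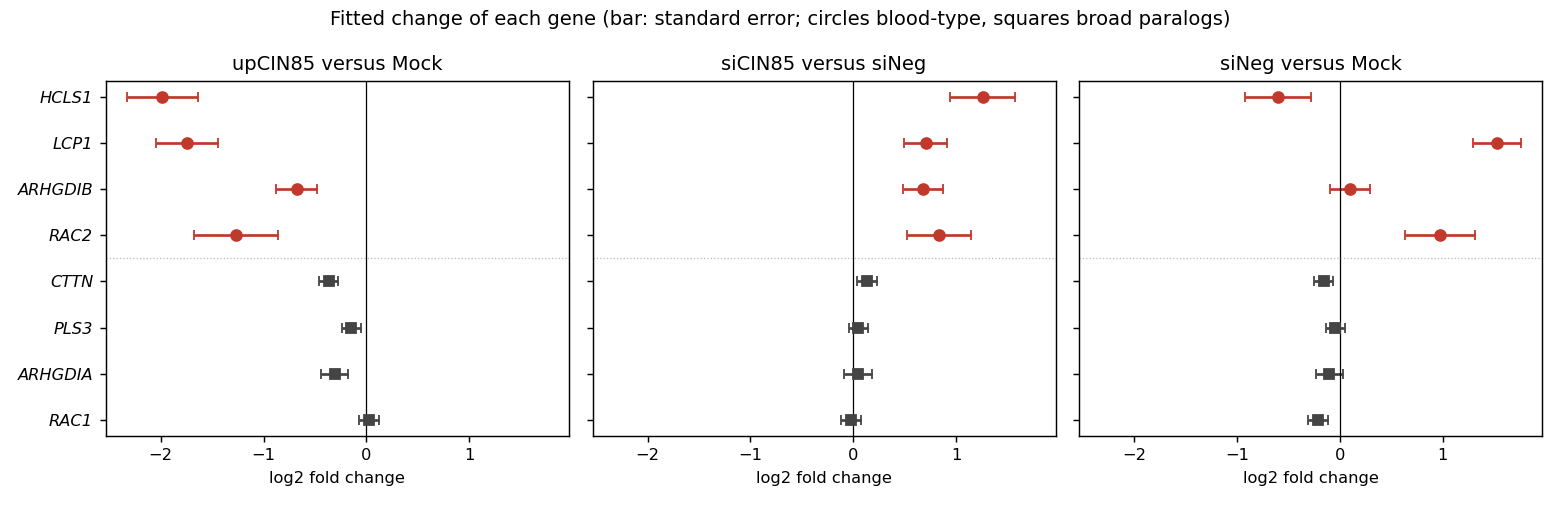
Log2 fold change (x axis) of the 4 blood‐type genes (circles) and the 4 broad paralogs (squares) in the 3 comparisons, with standard errors (bars). Circles lie left of 0 in upCIN85 versus Mock and right of 0 in siCIN85 versus siNeg, squares lie between -0.37 and 0.13 in those panels, and in siNeg versus Mock LCP1 (1.53) and RAC2 (0.97) lie right of 0 and HCLS1 (-0.60) left of it.

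The cells with control siRNA and the cells with empty vector were not targeted for CIN85, and this comparison was not used to choose the members. Earlier results of these data were known when the members were chosen, so the test is not fully independent of that choice. It shares the siNeg and Mock libraries with the other comparisons, and transfection of siRNA and the experiment cannot be told apart in it. LCP1 rose 2.89‐fold in siNeg, from 8.33 ± 0.942 to 24.0 ± 5.05 CPM (log2FC = 1.53, SE 0.23, adjusted P = 0.00852 in edgeR's test, n = 3 and 3). The adjusted P ranged from 7.52e-10 to 0.0616 over 12 alternatives and passed in 9, and edgeR's test no longer called the gene when Mock replicate 2 (0.0616), Mock replicate 3 (0.0509) or siNeg replicate 2 (0.0539) was left out, with log2FC values of 1.44, 1.60 and 1.39. LCP1 was 1 of the 8 members past the threshold, where 0.526% of all genes passed in either direction and 0.415% with a higher value.

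The remaining blood‐type members did not pass in siNeg versus Mock. HCLS1 had a log2FC of -0.60 (SE 0.32, adjusted P = 0.457 in edgeR's test), with every siNeg library below every Mock library, as held for 9.94% of all genes. RAC2 had 0.97 (SE 0.34, adjusted P = 0.238 in edgeR's test), and like LCP1 it was higher in every siNeg library, as held for 9.48% of all genes. ARHGDIB had 0.10 (SE 0.20, adjusted P = 0.884 in edgeR's test). Blood‐type genes thus had values on both sides of 0 here. The 4 broad paralogs had log2FC values from -0.22 to -0.048, with adjusted P‐values from 0.375 to 0.884 in edgeR's test and overlapping libraries.

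Ratios within a library do not depend on the scaling between libraries. Between siNeg and Mock the log2 ratio of blood‐type to broad gene differed by 1.56 for LCP1 and PLS3 (SE 0.17), 1.17 for RAC2 and RAC1 (SE 0.36), -0.43 for HCLS1 and CTTN (SE 0.17) and 0.22 for ARHGDIB and ARHGDIA (SE 0.16). A two‐sided exact permutation test gave P = 0.1 for the first 3 pairs, which is the smallest that 3 libraries against 3 allow, and P = 0.2 for the last. The siNeg libraries were also shallower than the Mock libraries, and the part of depth in these differences was not tested.

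Markers of other cells were read beside these genes. Of 14 blood cell markers 11 were in the table, none passed the filter on low counts, and 7 had at most 3 counts in every library. PTPRC, the pan‐leukocyte CD45 gene, the myeloid factor gene SPI1 and the T cell gene CD3E each had 1 count in all 12 libraries together, so the defining blood markers were at or near 0. The summed CPM of the list was 2.80 to 3.72 in Mock and 2.28 to 3.73 in upCIN85, and 2.49 to 4.67 in siNeg and 4.47 to 5.81 in siCIN85, mostly from CD34 and CD14, with 75 counts each. All 12 osteosarcoma and mesenchymal markers were tested, with S100A6 the highest. Their summed CPM was 4089 to 4687 in Mock and 4172 to 5870 in upCIN85, and 4418 to 5083 in siNeg and 3236 to 3592 in siCIN85, so the siCIN85 libraries were lowest, and the part of this in the values of the members was not tested.

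Other genes of the same machinery were taken from 5 lists with 128 genes, of which 97 were tested. The lists were written with earlier results of these data known. Their shares past a threshold are therefore a description and cannot show an excess. The list of blood‐type cytoskeleton genes had 31 genes besides the members, and 29 were in the table. Only 7 of them, WIPF1, FMNL1, PARVG, ARHGAP4, ARHGAP9, STK10 and ITGB2, passed the filter, and 15 of the 29 had at most 3 counts in every library. The median of their mean levels was 0.170 CPM, and 22 of the 29 did not pass the filter in HOS cells. None of the 7 passed edgeR's test in any comparison (0, 2 and 1 had an unadjusted P below 0.05 in upCIN85, siCIN85 and siNeg versus Mock, beside 14.5%, 15.7% and 12.4% of all genes), and their median log2FC was 0.13 in upCIN85, 0.13 in siCIN85 and 0.065 in siNeg versus Mock. In upCIN85, 4 of the 7 lay above 0 and 3 below, where 51.1% of all genes lay above 0. In siCIN85, 5 lay above 0 and 2 below, where 49.2% of all genes lay above 0. The genes named next were picked after their values were seen. PARVG, encoding the blood cell form of parvin, had a log2FC of -1.17 in upCIN85 (SE 0.57, adjusted P = 0.359 in edgeR's test). It rested on 0 to 15 counts per library and had 0.062 in siCIN85 (SE 0.62). STK10, a kinase of lymphocytes that phosphorylates ezrin, radixin and moesin, had 0.53 in siCIN85 (SE 0.19, adjusted P = 0.173 in edgeR's test). FMNL1 went the other way from the blood‐type members, with 0.57 in upCIN85 (SE 0.29) and -0.65 in siCIN85 (SE 0.33).

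All 21 broadly expressed paralogs of such genes were tested. Their median log2FC was -0.19 in upCIN85, with 17 of 21 below 0 and none past the threshold in edgeR's test (5 at an unadjusted P below 0.05, beside 14.5% of all genes). Over all genes tested, 51.1% lay above 0 in upCIN85. In siCIN85 the median was -0.026, and FERMT2, encoding the integrin activator kindlin‐2, fell from 340 ± 46.7 to 199 ± 60.6 CPM (log2FC = -0.78, SE 0.17, adjusted P = 0.0305 in edgeR's test). The 26 partners of cortactin and the Arp2/3 complex had medians of -0.14 in upCIN85, with 19 of 26 below 0, and -0.024 in siCIN85, with none past the threshold of edgeR's test in either (1 and 6 at an unadjusted P below 0.05, beside 14.5% and 15.7% of all genes). In siNeg versus Mock, 16 of the 21 broad paralogs and 18 of the 26 partners also lay below 0. There 50.5% of all genes lay above 0. Both comparisons share the Mock libraries, so these counts are not particular to upCIN85. The replicate block treats libraries of the same number as paired within both the overexpression and the knockdown experiment. With it, 5 of the 26 passed in siCIN85, beside 7.72% of all genes, with adjusted P‐values from 0.0114 to 0.0383 in edgeR's test. These 5, named after their values were seen, were ARPC1B and WASF3 with higher values and ARPC5, CD2AP and CAPZA2 with lower ones. ARPC1B and ARPC5 encode Arp2/3 subunits, and CD2AP encodes the closest relative of CIN85.

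Of 18 tested bundlers and crosslinkers, CNN1, encoding the actin‐binding protein calponin 1, rose in upCIN85 from 43.8 ± 13.2 to 126.5 ± 55.8 CPM (log2FC = 1.53, SE 0.26, adjusted P = 0.00895 in edgeR's test). In siCIN85, ANLN, encoding the cytokinesis scaffold anillin, fell from 218 ± 38.5 to 139 ± 21.0 CPM (log2FC = -0.65, SE 0.13, adjusted P = 0.0253 in edgeR's test). PALLD, encoding the stress fibre protein palladin, fell from 76.0 ± 8.68 to 48.9 ± 5.82 CPM (log2FC = -0.64, SE 0.15, adjusted P = 0.0462 in edgeR's test). The medians of the bundlers were -0.019 in upCIN85 and -0.24 in siCIN85, where 13 of 18 lay below 0 and 49.2% of all genes lay above 0. In siNeg versus Mock, 12 of the 18 lay below 0. With the replicate block, 6 of the 18 bundlers passed in siCIN85, 1 higher and 5 lower, beside 7.72% of all genes. So did 3 of the 21 broad paralogs, 2 higher and 1 lower. In upCIN85, 3 of the 18 bundlers and 2 of the 21 broad paralogs passed with the block, beside 8.25% of all genes.

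Over the 5 lists, 1 of 97 tested genes passed in upCIN85 (1.03%) and 4 of 97 in siCIN85 (4.12%), beside 1.23% and 1.04% of all genes. As earlier results were known when the lists were written, no share given here can show an excess over all genes. None passed edgeR's test in siNeg versus Mock, where 19 had an unadjusted P below 0.05 and DESeq2 called 2. With the replicate block, 19 of the 97 passed in siCIN85, 7 higher and 12 lower (19.6%, against 7.72% of all genes). Where only the knockdown had the replicate block, 9 of the 97 passed, with 429 calls over all genes. The count of 4 in siCIN85 depended on single libraries, since 0 list genes passed without siCIN85 replicate 1 or without siNeg replicate 1, 1 when siCIN85 replicate 3 was left out, 2 when siNeg replicate 2 was left out, and 8 in the absence of siCIN85 replicate 2. The calls over all genes moved in the same way, from 131 to 9, 17, 14, 13 and 362 in these settings. The call of CNN1 was lost without Mock replicate 3 or upCIN85 replicate 3.

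**Figure D4:**
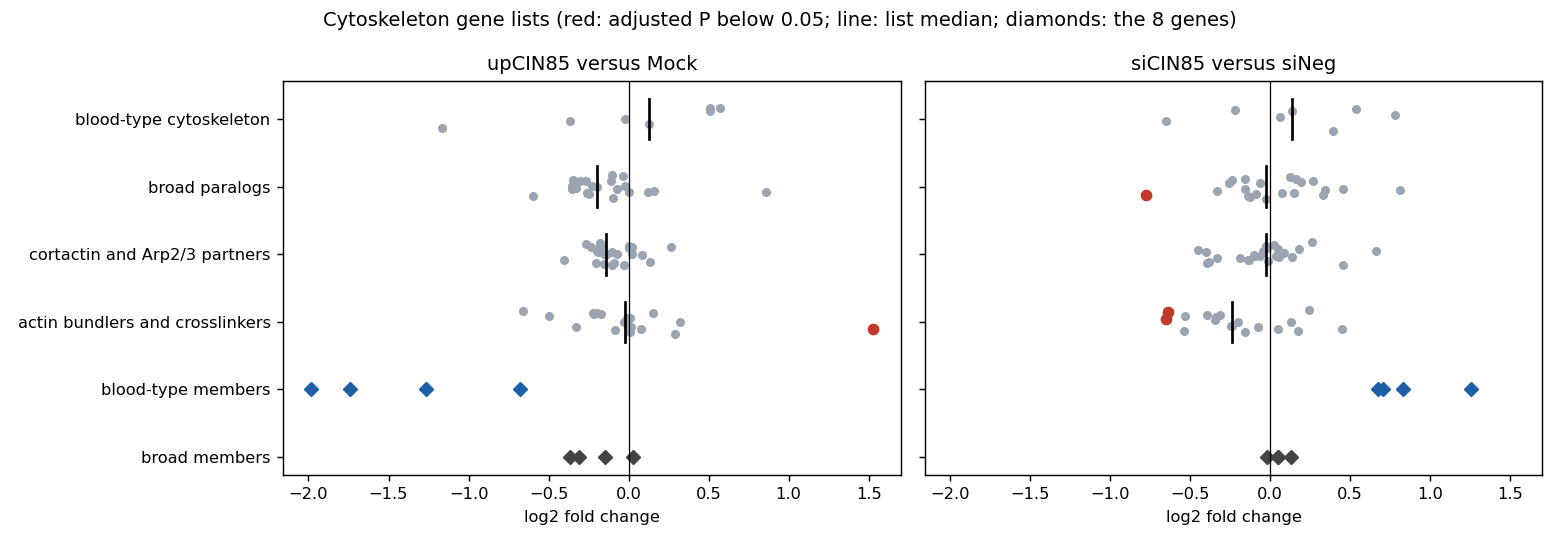
Log2 fold change (x axis) of each tested gene of 4 cytoskeleton lists (points, red where the adjusted P‐value was below 0.05, with the list median as a line) and of the 8 members (diamonds) in upCIN85 versus Mock and siCIN85 versus siNeg. The blood‐type members lie between -1.98 and -0.68 on the left and 0.68 and 1.26 on the right, and the medians of the lists lie between -0.24 and 0.13.

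The genes with the most similar pattern to each blood‐type member were found by Pearson's r of log2 CPM over the 12 libraries among all genes tested. The 12 libraries fall into 4 groups and share their depth within a group, so r is a description. For HCLS1 they were GRK6 (r = 0.962), which encodes a receptor kinase, ZIK1 (0.957), a zinc finger gene, and PPAT (0.948), encoding an enzyme of purine synthesis. For LCP1 they were ESM1 (0.986), which encodes the secreted proteoglycan endocan, SERPINB8 (0.974) and RELB (0.974), an NF‐κB subunit. For ARHGDIB they were ESRRA (0.964), NLK (0.963) and PHF19 (0.955). For RAC2 they were SERPINB8 (0.980), SCARF1 (0.968) and LCP1 itself (0.964). ESM1 was at 3.25 ± 0.401 CPM in Mock and 0.714 ± 0.796 in upCIN85, and 11.5 ± 3.43 in siNeg and 32.7 ± 11.99 in siCIN85, the order seen for LCP1. GRK6 was at 43.9 ± 2.11, 29.9 ± 8.02, 40.8 ± 4.40 and 46.9 ± 1.20 CPM in the same groups, the order seen for HCLS1. With their own paralogs, blood‐type members had r of 0.834 for HCLS1 and CTTN, 0.507 for ARHGDIB and ARHGDIA, 0.442 for LCP1 and PLS3 and -0.778 for RAC2 and RAC1. The 3 genes named per member were taken for their high r, so a lower r of a paralog is no finding. HCLS1 had r of 0.925 with ARHGDIB, 0.843 with RAC2 and 0.796 with LCP1, the last below its r with CTTN. LCP1, ARHGDIB and RAC2 had r of 0.894 to 0.964 with each other.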

How the data were processed

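The authors deposited raw counts per gene for 12 libraries of a stranded 3′ end kit with unique molecular identifiers. The submitters' processing notes name cutadapt 4.3, STAR 2.7.3a, Picard 2.25.6, featureCounts of Subread 2.0 and GRCh38; the annotation, and whether identifiers were collapsed, are not given in the sources used here, so counts may include PCR copies. Samples were grouped by their labels. Names came from GENCODE 29 (95 identifiers unmatched). The 8 members, the 5 cytoskeleton lists and the 2 marker lists were chosen with earlier results of these data known.

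Counts were tested in R 4.3.3 with edgeR 4.0.16 (filterByExpr with minimum count 10 and minimum total 15, TMM, quasi‐likelihood fit of all 12 libraries by group, Benjamini‐Hochberg over 12542 genes, threshold 0.05), and CPM are TMM‐normalized. The filter asked for about 2.10 CPM in 3 libraries, which upCIN85 libraries of HCLS1, LCP1 and RAC2 did not all reach. SE was the absolute log2FC over the square root of F. Log2 CPM for r used a prior count of 2. The test was first run on simulated counts. Alternatives were RLE, 2 other filters, 6 libraries, DESeq2 1.42.0, the replicate number as a block, and each library left out. Deviations from the group means were correlated between libraries of the same number. The r values were 0.353, 0.269 and 0.446 for siCIN85 and siNeg, and 0.326, 0.227 and 0.0989 for upCIN85 and Mock. For siNeg and Mock, which belong to different experiments, they were 0.0751, 0.180 and -0.0600. Libraries with different numbers were not compared, so whether the numbers pair the libraries was not tested. The main fit took no libraries as paired. No 2 libraries of a group were duplicates. Named genes were the members, the remaining family members, SH3KBP1, up to 4 genes past the threshold per list, the 3 most similar genes per blood‐type member, and markers at 0 or highest in their list. The results of 1 of the 5 lists enter the counts over all lists and are otherwise not reported here. PARVG, STK10, FMNL1 and 5 partners of cortactin were named after their values were seen.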

Additional observations from a re-analysis of the deposited data

How the results depend on the processing

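Low counts limit HCLS1, LCP1 and RAC2 in upCIN85, where 4 to 35 counts stood behind a value, and a filter of at least 10 counts in every library left no value for HCLS1, RAC2 or their pairs. For member log2FC values, 292 of the alternative values kept their direction or moved within the spread, 3 moved further and 3 lost the call of LCP1 in siNeg versus Mock; the values of PLS3, ARHGDIA and RAC1 near 0 changed sign in places. With each library left out, the count of members past the threshold in siNeg versus Mock was 0 to 1, and the difference of log2FC in upCIN85 (the fitted value of the blood‐type gene minus that of its paralog) ranged from -2.31 to -1.21 around -1.62 for HCLS1 and CTTN (lowest without upCIN85 replicate 2, highest without replicate 3), from -2.02 to -1.38 around -1.59 for LCP1 and PLS3, from -0.71 to -0.18 around -0.37 for ARHGDIB and ARHGDIA, and from -1.68 to -0.95 around -1.29 for RAC2 and RAC1. The cause was not tested.

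The number of list genes past the threshold in upCIN85 was 1 (154 over all genes), against 3 with no filter (637), 3 with 6 libraries (281), 2 in DESeq2 (311), 6 with the replicate block (1035), 4 where only the knockdown had the replicate block (545), and 0 to 3 with a library left out (25 to 260). In siCIN85 it was 4 (131 over all genes), against 13 (617), 0 (50), 7 (298), 19 (968) and 9 (429) under the same settings and 0 to 8 with a library left out (9 to 362). In siNeg versus Mock it was 0 (66 over all genes, and 1560 at an unadjusted P below 0.05), against 6 with no filter (376), 1 with 6 libraries (91), 2 in DESeq2 (183) and 0 to 1 with a library left out. The replicate block changed no call of a member in siNeg versus Mock.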
